A study of Mus musculus with 4 samples.

Results

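Among the rows of the expression tables of the mouse liver cancer line Hepa1-6 were 60983 loci that carry no gene name and are identified only by chromosome, start, end and strand. The loci described here are those that stood alone and were long: loci on the same strand with at most 1000 bp between them were chained, and a locus was kept when no other joined its chain and its length was at least 900 bp. This left 13897 loci, 22.8% of the position-named loci, with lengths from 900 to 5331 bp and a median of 2307 bp. The others were 17299 solitary loci under 900 bp, 8746 loci in pairs, 11540 in arrays of neighbouring loci with at least 1 locus of 900 bp or longer and 9501 in arrays of shorter loci only.

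Loci named by position in this form are known from catalogues of open reading frames of endogenous viral elements, the remains of retroviruses and other retroelements that inserted into the genome of an ancestor; the files themselves do not say what the loci are. An intact retrovirus-like element carries several reading frames in a row, for structural proteins, a polymerase and an envelope, whereas a single long frame with no neighbour can be left by elements whose polymerase frame is by far the longest, such as LINE-1, or by a fragment. In mouse cells many such elements are kept silent by methylation of lysine 9 of histone H3, which Setdb1, a histone methyltransferase recruited through KRAB zinc finger proteins and Trim28, places on them.

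The 4 libraries came from total RNA of Hepa1-6 cells, 2 with an shRNA labelled NC (the control, whose genotype label is Setdb1 wild type) and 2 with an shRNA against Setdb1 (the knockdown). The design text calls the cells subclones, and the labels name no separate cultures, so the spread that p-values rest on is the spread between libraries and may be technical. The comparison asks what the loss of Setdb1 did to the RNA of these loci.

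Sequence was looked up for the loci in transcripts of GENCODE M21 (GRCm38) and in promoter windows of RefSeq (GRCm38.p6), and 112 of the 13897 loci had a stretch of at least 60 bases there. In all 112 the stretch held no stop codon in the locus's own frame. The first codon was ATG in 1 of the 41 loci with a known first base, the codon before the locus was a stop in 37 of 38 and the codon after it was a stop in 48 of 50. Nearly all loci with known flanks thus ran from stop to stop, and the lengths, all multiples of 3, are those of open frames and not of transcripts.

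Lengths recurred. The commonest were 3900 bp (2941 loci), 3546 bp (437 loci), 2091 bp (137 loci), 1116 bp (97 loci), 2919 bp (79 loci) and 1932 bp (73 loci). At the first 2 of these lengths sequence was compared within the length. All 20 other loci of 3900 bp with sequence matched a complete one on chromosome 10 at 96.4 to 100% identity, and all 11 other loci of 3546 bp matched a complete one on chromosome 6 at 98.0 to 99.5%, in blastn matches of at least 90% identity over at least 80% of the stretch. Of the 60 loci of other lengths with sequence, 28 matched the 3900 bp sequence, 4 the 3546 bp sequence and 2 the third family described next.

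Loci with the lengths of the third family held most of the RNA. It is called here the 3.2 kb family by its usual length, and its lengths were taken as 1932 bp and 3100 to 3400 bp (812 loci), a length class chosen after the values were seen. Its complete reference copy, chr3:51240648-51243860 (+, GRCm38; 3213 bp), lies wholly in an exon of Noct, a gene of a rhythmic phosphatase. A 1932 bp locus on chromosome 12, chr12:73312395-73314326 (-), aligned without gaps to bases 1282 to 3213 of that copy at 99.2% identity, so the 1932 bp frame is the last part of the longer one. Of the 18 other loci of the class with sequence, 9 matched the reference copy at 97.6 to 100%, 3 matched the 3900 bp sequence instead at 93.4 to 97.8%, and 6 reached neither limit, so the length class is not purely 1 family.

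A stretch of 164 bases held for 6 loci of the length class is shown because loci that share such a stretch share the reads that fall in it. It matched the reference copy at only 87.8% (form 1) and 88.9% (form 2), below the 90% limit, and 5 of the 6 loci are among those that reached neither limit. The other, chr9:98767055-98770330 (+), also held a longer stretch that matched the reference copy at 98.0%. The first form was identical in 4 loci and is given from chr6:4364232-4364395 (+), the second was identical in 2 loci and is given from chr3:116818815-116818978 (+). The forms were 98.8% identical, with the substitutions A62G and C111G counted from 1 at the 5′ end of the stretch (capitals).
Form 1: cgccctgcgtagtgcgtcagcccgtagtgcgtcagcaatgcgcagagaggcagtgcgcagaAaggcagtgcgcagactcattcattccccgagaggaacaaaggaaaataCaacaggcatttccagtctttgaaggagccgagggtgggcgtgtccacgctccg
Form 2: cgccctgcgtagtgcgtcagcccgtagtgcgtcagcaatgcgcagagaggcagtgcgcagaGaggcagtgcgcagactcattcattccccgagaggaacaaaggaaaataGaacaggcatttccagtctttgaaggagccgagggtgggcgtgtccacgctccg

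The next pair shows the same place in 2 copies of the family that differed widely in counts, an undetected locus of 3162 bp (chr5:60807155-60807304, -, in the locus chr5:60805064-60808225) and the locus chr2:84505774-84509064 (+, 3291 bp), which lies across the start of the long noncoding gene Gm13710 (printed from 84506824 to 84506973). They were 97.3% identical over 150 bases, with the substitutions G19A, C50T, A67G and G73A from the chromosome 5 to the chromosome 2 copy (capitals).
Chromosome 5 copy: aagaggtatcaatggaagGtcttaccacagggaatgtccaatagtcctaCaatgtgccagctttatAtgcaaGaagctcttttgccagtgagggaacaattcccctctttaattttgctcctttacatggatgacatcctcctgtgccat
Chromosome 2 copy: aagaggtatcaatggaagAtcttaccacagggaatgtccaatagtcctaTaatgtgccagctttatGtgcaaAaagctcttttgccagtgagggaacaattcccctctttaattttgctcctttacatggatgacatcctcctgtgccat

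To show how alike copies of equal length are, the 3546 bp loci are given by bases 1000 to 1149 of 2 copies, chr19:32206215-32206364 (-) and chr10:50293037-50293186 (-). They differed by C18T alone (capitals), and the 11 loci of 3546 bp that hold these 150 bases had 4 forms, 1 of them shared by 5 loci.
Chromosome 19 copy: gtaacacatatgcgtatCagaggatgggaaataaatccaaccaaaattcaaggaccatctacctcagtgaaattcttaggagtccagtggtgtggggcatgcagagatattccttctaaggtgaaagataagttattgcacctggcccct
Chromosome 10 copy: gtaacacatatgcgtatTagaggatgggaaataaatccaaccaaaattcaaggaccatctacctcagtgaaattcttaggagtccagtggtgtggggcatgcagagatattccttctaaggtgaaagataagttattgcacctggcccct

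The 4 libraries held 19513567 to 19615440 expected counts each in sum, and counts per library total are given as CPM. An expected count is the authors' estimate in which a read that fits several rows is divided among them. Setdb1 itself was at 51.2 and 59.4 CPM in the controls against 11.0 and 8.59 CPM after knockdown (log2 fold change -2.48, SE 0.18, adjusted p = 0.00013, edgeR quasi-likelihood test). Of 7 hepatocyte markers 5 passed the filter on low counts, with Alb and Afp abundant and Ttr and Apoa1 near 0. Alb was called higher (log2 fold change 0.95) and Hnf4a, a hepatocyte transcription factor, lower (-0.59, adjusted p = 0.027, edgeR). The summed hepatocyte markers were at 2119 and 2252 CPM in the controls against 3094 and 2767 CPM in the knockdown libraries, the fibroblast markers at 1452 and 1568 against 1670 and 1634 CPM, nearly all of it Dcn although Col1a1 was called higher (2.18), and the leukocyte markers at 6.33 and 6.15 against 11.98 and 10.02 CPM with Cd3e and Clec4f at 0. The 1 leukocyte marker tested, Cd68, was called higher (0.81). The 4 cholangiocyte markers summed to 78.8 and 77.6 CPM in the controls and 80.7 and 85.2 CPM in the knockdown libraries. Among them Epcam was called higher (1.07). Krt7 (0.81), Krt19 (1.76) and Sox9 (-0.36), which held most of the sum, were not called. The 4 endothelial markers summed to at most 2.14 CPM in any library, with none called. The part of these shifts in the values of the loci was not tested. In bulk RNA, fewer cells with a transcript and less of it per cell cannot be told apart.

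Most of the solitary long loci were not detected at this depth. No count was found for 11775 of the 13897 loci in any library, and 412 had at least 10 counts in sum. At least 1 count was found for 807 and 872 loci in the controls against 965 and 944 loci after knockdown. More loci were thus detected in both knockdown libraries than in either control (839.5 ± 46.0 against 954.5 ± 14.8, SD, n = 2 each; exact permutation p = 0.333, two-sided, the smallest that 2 against 2 libraries allow).

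Summed over all 13897 loci the RNA went the other way. The sum was 817.6 and 968.4 CPM in the controls against 676.4 and 763.5 CPM after knockdown, that is 893 ± 107 against 720 ± 61.6 CPM (SD, n = 2 each; exact permutation p = 0.333). The groups did not overlap, and the difference of -173 CPM was -97.6 CPM without control 2. In each library 47.3 to 49.9% of the sum came from 4 loci. Without these 4 the difference was -72.4 CPM, and without the 812 loci of 1932 or 3100 to 3400 bp it was -8.12 CPM with overlapping groups.

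The 812 loci of the 3.2 kb family's lengths held 61.4% of all counts of the solitary long loci. Their summed level was 507.4 and 647.9 CPM in the controls against 390.6 and 434.9 CPM after knockdown. Both knockdown libraries lay below both controls, and control 2 was the highest. The 13085 loci of all other lengths summed to 310.2 and 320.5 CPM in the controls against 285.8 and 328.6 CPM after knockdown, and the groups overlapped. The loci with the lengths of the 2 other copy families were low, and their sums were higher in the knockdown libraries. The 437 loci of 3546 bp had 178 and 130 counts in the controls against 232 and 325 after knockdown. The 2941 loci of 3900 bp, the most numerous length, had only 79.7 and 125 counts against 189 and 139. At both of these lengths the knockdown libraries lay above both controls, and the exact permutation p was 0.333 for each. The 65 loci of the 3.2 kb family's lengths that stood in pairs or arrays, and so outside the solitary set, had 296 and 308 counts in the controls against 461 and 474 after knockdown, the opposite direction to their solitary counterparts. The difference between solitary and neighboured copies was not tested.

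**Figure D1:**
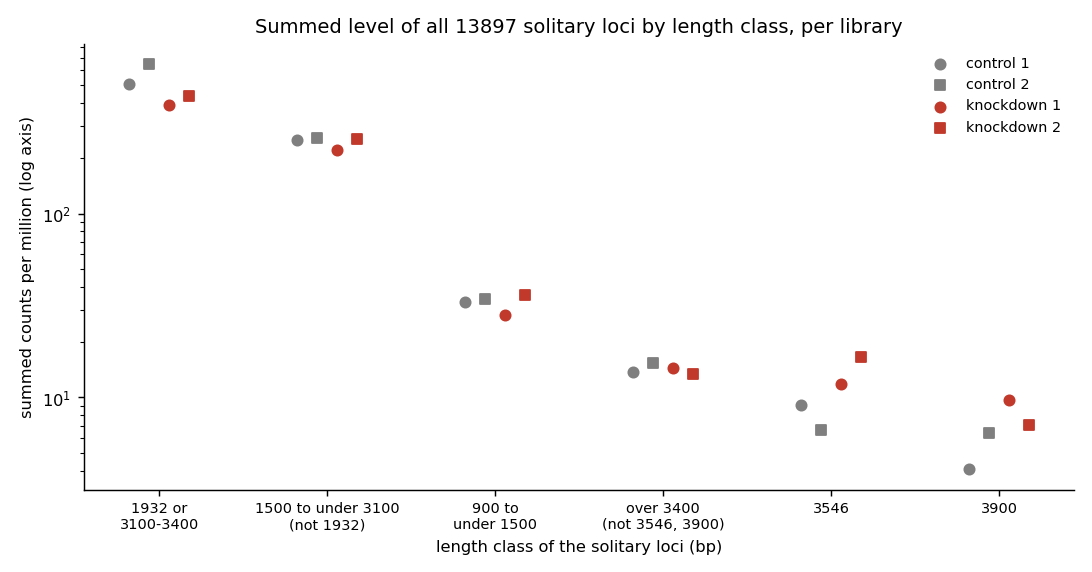
Summed CPM (vertical, log axis) of all solitary loci of each length class (horizontal, bp) in control 1 and 2 (grey) and knockdown 1 and 2 (red), 1 point per library. The knockdown points lie below both controls at 1932 or 3100 to 3400 bp, above both at 3546 and 3900 bp, and overlap the controls in the other 3 classes.

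The filter on low counts left 178 of the 13897 loci (1.28%) to be tested in 1 fit with all genes and loci, 13859 rows in all. These 178 are the expressed minority, and a locus near 0 in the controls could pass only through the knockdown libraries, so their counts describe them and not all 13897 loci. Of the 178, 5 were called higher in the knockdown at an adjusted p under 0.05 and 3 lower, and 170 were not called. Over all 13859 rows tested 5.75% were called higher, 1.8% lower and 7.55% in either direction, so the 2.81% and 1.69% of the tested solitary long loci were at or under the background.

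The tested loci lay mostly below 0. The log2 fold change was negative in 141 and positive in 37 of the 178, with a median of -0.46 against 0.00 over all rows tested. The tested loci of the other arrangements lay below 0 as well, with medians of -0.34 for pairs, -0.22 for all other position-named loci and -0.30 for loci of 900 bp or longer in pairs and arrays, and the difference from them was not tested. With no filter on low counts the median of the solitary long loci was 0.02 over 1904 loci. Among them the 332 loci of 1932 or 3100 to 3400 bp, a class chosen after the values were seen, had a median of -0.50. Both knockdown libraries were below both controls in 89 loci (50.0%, against 27.5% of all rows) and above both in 15 loci (8.43%, against 25.3% of all rows). Without adjustment p was under 0.05 for 32 loci in the lower direction and 8 in the higher one, where all rows gave 9.07% and 13.1%. Of the 178 loci, 165 had fractional counts in all 4 libraries and only 1 had whole counts in all, so nearly every value includes reads that were divided with other rows. The part of that division in the shifts was not tested.

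Tested loci were concentrated in the 3.2 kb family's lengths, with 140 of 812 loci (17.2%) passing the filter against 38 of the 13085 others (0.290%). Of the 140, 3 (2.14%) were called lower and 0 higher by edgeR's quasi-likelihood test. Over all rows tested 1.8% were called lower and 5.75% higher, so the lower calls were near the background. At an unadjusted p under 0.05, 28 of the 140 were lower and 3 higher, where all rows gave 9.07% and 13.1%. DESeq2 called 1 of the 140 lower and 0 higher, against 315 and 784 of all 13859 rows. Their median change on the log2 scale was -0.48, and 117 of the 140 were below 0. Of the 38 of other lengths, 5 (13.2%) were called higher and 0 lower, and the median was -0.42. At an unadjusted p under 0.05, 4 of the 38 were lower and 5 higher, and DESeq2 called 0 lower and 5 higher. The 5 loci called higher had lengths outside the class that holds most of the RNA, and the 3 called lower had lengths in it. This class was chosen after the values were seen. All 5 had at most 4.23 counts in a control library and so passed the filter through the knockdown libraries. The split is thus a description only. That split did not hold under 3 alternatives. Without control 1, 1 locus of other lengths was called lower, and without knockdown 1, 2 loci of the family's lengths were called higher and 1 of other lengths lower. A replicate block with the numbers crossed called 2 of the family's lengths higher and 3 of other lengths lower.

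**Figure D2:**
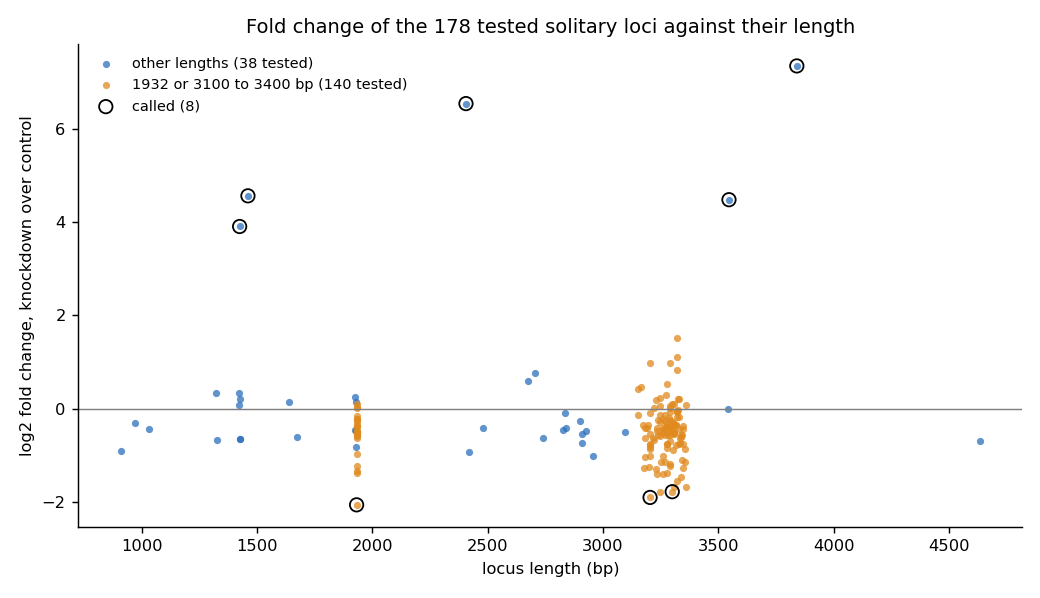
Log2 fold change of knockdown over control (vertical) against length in bp (horizontal) for the 178 tested solitary loci, with those of 1932 or 3100 to 3400 bp in orange, others in blue and called loci ringed. The 5 called increases stand at 3.90 or above and the 3 called decreases lie between -1.78 and -2.06, within the orange columns.

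The rise with the smallest adjusted p was at chr6:147460832-147463237 (+, GRCm38; 2406 bp), within an intron of the noncoding gene Gm6288 on the opposite strand. Its counts were 4.23 and 0 in the controls against 170.42 and 218.11 after knockdown, far apart in the groups. The ratio of summed knockdown to control counts was 96.8 (exact 95% binomial interval 37.5 to 357, counting error only), with a log2 fold change of 6.53 (SE 0.53, adjusted p = 0.000161, edgeR). Without control 2 the log2 fold change was 5.56, and without control 1 the control left was at 0, so that no fold can be given, while the call held (adjusted p = 0.00284). Gm6288 was at 3 and 7 counts in the controls against 7 and 6, and its groups overlapped. No other position-named locus lay within 10 kb. Per length this was also the best expressed of the loci that rose, at 5.68 ± 1.004 TPM in the knockdown (SD, n = 2; TPM is scaled for length).

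The locus chr15:97474162-97477707 (+; 3546 bp) was the only tested locus of that length. No sequence was held for this locus, so its likeness to the other 3546 bp loci was not checked. It had 2.58 and 0 counts in the controls against 32.44 and 39.22 after knockdown, a ratio of 23.6 (interval 7.76 to 117; log2 fold change 4.47, adjusted p = 0.00375, edgeR). Without control 2 the log2 fold change was 3.52 (adjusted p = 0.0494). It lay between genes, and within 10 kb were 7 position-named loci of an array on the opposite strand, the nearest 4024 bp away. These 7 loci summed to 7.75 and 1 counts in the controls against 245.14 and 277.15 after knockdown, and all 4 of them that were tested were called higher. The solitary locus thus stood beside opposite-strand loci that rose with it.

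A similar setting was found for chr5:14992843-14994303 (-; 1461 bp), between genes. Its counts were 2 and 0 in the controls against 25.1 and 26.69 after knockdown, a ratio of 26.0 (interval 6.83 to 220; log2 fold change 4.56, adjusted p = 0.00445, edgeR), and the log2 fold change was 3.62 without control 2. Within 10 kb lay 5 loci of an array on the same strand, the nearest 5574 bp away and so beyond the chaining distance of 1 kb. The 5 summed to 2.72 and 3.44 counts in the controls against 47.54 and 67.22 after knockdown, and the 2 that were tested were called higher. Of the untested, 1 went from 2.72 and 1.75 counts to 0 and 0. At a wider chaining distance this locus would have belonged to that array.

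On the X chromosome chrX:9347296-9348720 (-; 1425 bp) had 2.35 and 3.26 counts in the controls against 28.84 and 47.87 after knockdown. The ratio was 15.4 (interval 6.31 to 48.7), with a log2 fold change of 3.90 (SE 0.58, adjusted p = 0.00351, edgeR). The nearest gene, H2al1k, a member of a family of testis histone H2A variants, lay 1907 bp away on the opposite strand. Its row held 0 and 0 counts in the controls against 12.37 and 7.61 after knockdown and did not pass the filter.

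The last of the 5, chr2:40171355-40175194 (+; 3840 bp), was the only locus with 0 counts in both libraries of 1 group and at least 10 in each of the other. It had 0 and 0 counts in the controls against 27.54 and 12.45 after knockdown, at least 13.3-fold higher against a floor of 3 counts over the control group (adjusted p = 0.0123, edgeR). The nearest gene, Gm13457, 1828 bp downstream on the same strand, was at 0 in all 4 libraries. Of the 5 calls, those on chromosomes 2, 5 and X were lost without control 2 (adjusted p 0.102, 0.0567 and 0.0596, edgeR). The chromosome 2 locus also did not pass the filter without knockdown 1 or at 1 CPM in 2 libraries. With no filter on low counts none of the 8 calls in either direction held.

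The 3 loci that fell changed less and from low levels. The locus chr13:114623623-114626826 (-; 3204 bp), opposite an intron of the noncoding gene 4930544M13Rik, had 27.74 and 45.46 counts in the controls against 6.80 and 11.88 after knockdown. The log2 fold change came to -1.91 (SE 0.45, adjusted p = 0.0336, edgeR), and the groups were apart. The locus chr3:73733763-73737062 (+; 3300 bp), between genes, had 27.28 and 33.23 counts against 7.19 and 9.78, a log2 fold change of -1.78 (SE 0.43, adjusted p = 0.0341). The locus chr10:80977543-80979474 (+; 1932 bp) had 17.9 and 20.63 counts against 5.59 and 2.95, a log2 fold change of -2.06 (SE 0.52, adjusted p = 0.0443). It lies opposite an intron of Gng7, a G protein gamma subunit, whose row was at 83 and 63 against 46 and 70 counts and was not called. None of these 3 calls held in DESeq2, where the adjusted p ran from 0.0866 to 0.217, and none held without control 2.

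**Figure D3:**
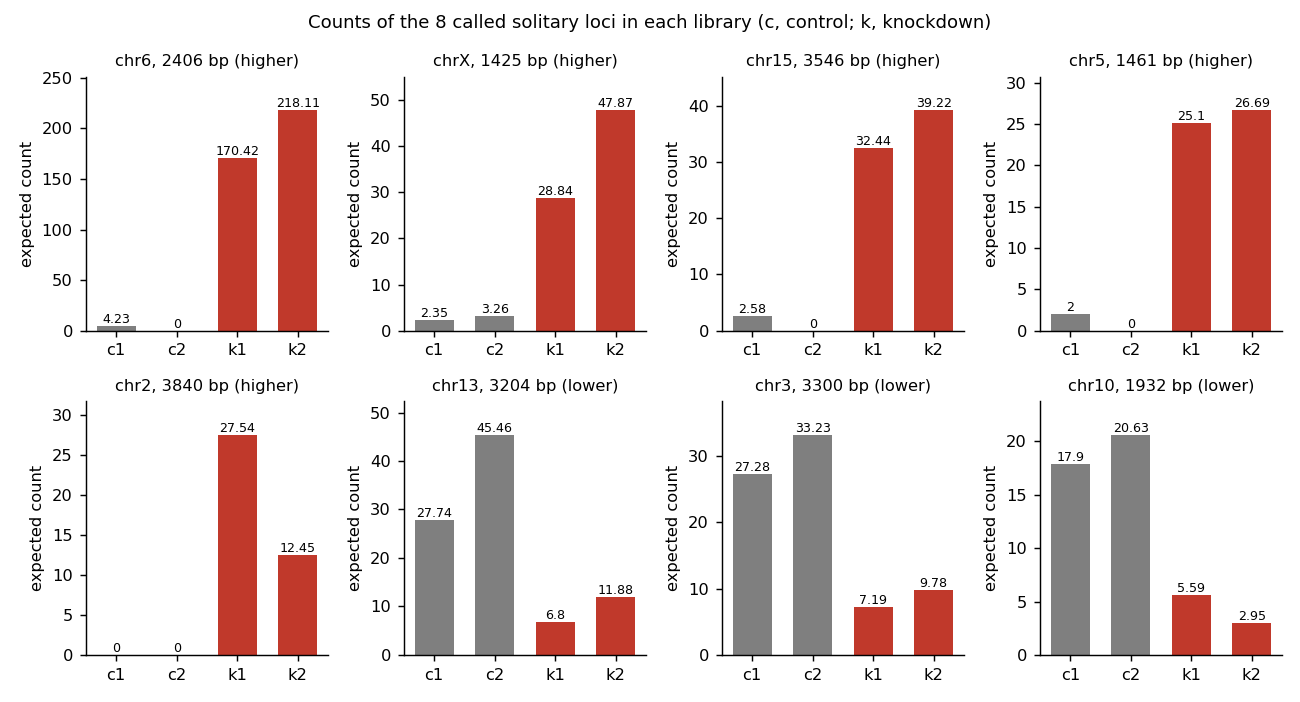
Expected counts (vertical, from 0; each panel has its own scale) of the 8 called solitary loci in control 1 and 2 (c1, c2, grey) and knockdown 1 and 2 (k1, k2, red), with the value above each bar. The 5 loci called higher have at most 4.23 counts in a control library, and the 3 called lower have at most 11.88 in a knockdown library.

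The 8 most abundant solitary loci were not called by edgeR in the fit of all 4 libraries on the group alone. The highest in CPM, chr1:127893406-127896645 (-; 3240 bp), opposite an intron of Rab3gap1, a regulator of Rab GTPases, was at 146 and 230 CPM in the controls against 124 and 126 CPM after knockdown (log2 fold change -0.56, SE 0.19, adjusted p = 0.115, edgeR). Control 2 stood above the 3 other libraries, which were close together, and the log2 fold change was -0.22 without it and -0.83 without control 1, where the locus was called (adjusted p = 0.0231). Rab3gap1 itself had 2629 and 2549 counts in the controls against 2334 and 2280 and was not called.

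The locus chr2:98798041-98801244 (-; 3204 bp), between genes, was at 76.1 and 90.5 CPM against 51.4 and 60.1 CPM (log2 fold change -0.55, SE 0.15, adjusted p = 0.0583, edgeR). It is the 1 locus that DESeq2 called lower, with an adjusted p of 0.0283, and edgeR called it without knockdown 2 (adjusted p = 0.0331). The locus chrX:75582656-75585493 (+; 2838 bp) was at 72.7 and 71.7 CPM against 53.8 and 52.8 CPM (log2 fold change -0.42, SE 0.13, adjusted p = 0.102). In both loci the groups were apart although the test across all rows did not call them. The crossed replicate block, added after seeing the data, called both (adjusted p = 0.00814 and 0.0364) and the chromosome 1 locus (0.0121).

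Per length the highest was chr17:32372993-32374630 (+; 1638 bp), with a mean of 94.6 TPM over the 4 libraries, ahead of the chromosome 1 locus at 65.8 TPM. It lies in an intron of the noncoding gene Gm26858 and opposite an intron of Wiz, a zinc finger protein that binds H3K9 methyltransferases. It was at 109 and 91.4 CPM in the controls against 95.3 and 123 CPM after knockdown, with overlapping groups and a log2 fold change of 0.15 (SE 0.17). Of the 8 loci of highest CPM it was the only one without both knockdown libraries below both controls. That placing was found in 50.0% of all tested solitary long loci and in 27.5% of all rows tested.

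The other 4 of these 8 were chr11:106029634-106032978 (-; 3345 bp), chr7:106311182-106314088 (-; 2907 bp), chr11:116390023-116393298 (+; 3276 bp) and chr13:100590335-100593655 (-; 3321 bp). Their log2 fold changes were -0.43, -0.74, -0.34 and -0.19, and their levels ran from 9.10 to 35.2 CPM over the 4 libraries. The chromosome 7 locus was highest in control 2, at 35.2 CPM against 19.3 CPM in control 1. Its log2 fold change was -0.27 without control 2 and -1.09 without control 1, and edgeR called it lower without control 1 (adjusted p = 0.0195), without knockdown 1 (0.0308) and with the crossed block (0.0076). The 2 on chromosome 11 lie opposite introns of Kcnh6, a potassium channel, and Rnf157, a ubiquitin ligase. Both genes were near 0, at 0 to 2 counts in every library, while the loci held 178.54 to 547.28 counts. Marveld2, a tight junction protein gene 2302 bp upstream of the chromosome 13 locus, was at 252 and 232 against 237 and 245 counts.

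Loci that shared the 164-base stretch did not all have the same values, and the rest of their sequence was not compared. Of the 4 loci with form 1 of the 164-base stretch, chr6:4363619-4366909 (+) was level at 21.91 and 26.99 counts against 22.3 and 26.66. Another, chr9:98767055-98770330 (+), had 18.63 and 20.86 counts against 5.35 and 10.12 (log2 fold change -1.38, adjusted p = 0.126, edgeR). The 2 remaining loci with form 1 held 2.44 to 16.7 counts and were not tested. Both tested loci with form 2 overlapped between the groups, with log2 fold changes of 0.22 and -0.28.

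The chromosome 2 copy printed above beside an undetected one, chr2:84505774-84509064, had 97.56 and 139.59 counts in the controls against 131.94 and 329.17 after knockdown (log2 fold change 0.98, adjusted p = 0.176, edgeR). Its groups overlapped, and the high value was that of knockdown 2 alone. It was called higher without knockdown 1 (adjusted p = 4.62e-05) and with the crossed block (0.0293). The gene Gm13710, which overlaps the locus on the opposite strand with 25 exonic bases, had 0 to 4 counts.

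By place, 10209 of the 13897 loci (73.5%) lay between annotated genes, 2208 in introns of genes on the opposite strand, 1358 in introns on their own strand, 91 across an exon on their own strand and 31 across an exon on the opposite strand. Of the tested loci 117 lay between genes (65.7%), 39 opposite an intron and 16 in an intron on their own strand. A further 3 lay across an exon on their own strand and 3 across an exon on the opposite strand. Of the 5 loci that rose 4 lay between genes and 1 opposite an intron, and of the 3 that fell 1 lay between genes and 2 opposite introns. None of the 8 lay in an exon or in an intron on its own strand, where few of the tested loci lay. The library kit keeps strand, but whether counting used it is not given in the sources used here, so reads of a locus and of a gene on the opposite strand may not have been told apart. The X chromosome held the most loci, 1452, followed by chromosome 1 with 1066 and chromosome 3 with 995.

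Exons of coding genes on the same strand were overlapped by 13 loci, among them genes that mammals have taken over from retroelements. The longest locus of all, chr12:109590172-109595502 (-; 5331 bp), covers Rtl1, an imprinted placental gene of retrotransposon origin, and had 0 counts in all libraries. The loci over Syna and Synb, the mouse syncytins, which fuse cells in the placenta, had 6, 7, 6 and 4 counts and 0 in every library, and that over Asprv1, a skin protease of retroviral type, was at 0. The family copy in Noct was at 0, while the row of Noct held 1070, 753, 934 and 1043 counts in control 1, control 2, knockdown 1 and knockdown 2. None of the 13 was tested, and 7 were at 0 in all libraries.

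Near the length threshold, the shortest loci with at least 10 counts were chr13:4067478-4068389 (-; 912 bp), at 8.16 and 16.77 counts against 2.83 and 10.48, and chr9:7800731-7801702 (-; 972 bp), at 220.97 and 141.44 against 125.75 and 161.95. Both overlapped between the groups. Just below the threshold and so outside the set were chr2:140313838-140314713 (-; 876 bp), at 0.17 and 0 against 11.46 and 20.13 counts, and chr14:27573052-27573939 (+; 888 bp), at 8 and 7 against 20 and 10 counts. In both of these the knockdown counts lay above the control counts. The chromosome 2 locus was called higher (adjusted p = 0.0119, edgeR), and the chromosome 14 locus was not (log2 fold change 1.01, adjusted p = 0.308, edgeR).

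The longest locus with at least 10 counts was chr8:4887502-4892133 (-; 4632 bp), at 124.3 and 157.9 counts against 76.07 and 95.48 (log2 fold change -0.70, adjusted p = 0.131, edgeR), and was called lower with the crossed block (adjusted p = 0.0429). Next came chrX:62866237-62870148 (-; 3912 bp), at 0 and 0 against 10.31 and 7 counts, at least 5.66-fold higher against the floor of 3 counts and not tested. Of the 3 detected best among 3900 bp loci, chr1:44369523-44373422 (-) had 0 and 0 against 15 and 2 counts, while chr14:60328372-60332271 (-) and chr2:159658091-159661990 (+) had 4 and 6.86 against 6 and 2 and 4 and 3 against 4 and 3. Only the first of the 3 was detected in the knockdown libraries alone, and it was called higher without knockdown 2 (adjusted p = 0.0006, edgeR).

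Against the other position-named loci, the solitary long loci were called higher least often. Of the 860 tested loci of the other arrangements 189 were called higher (22.0%) and 8 lower, in the same fit. The shares called higher were 161 of 696 (23.1%) in arrays with a long locus, 17 of 140 (12.1%) in pairs, 5 of 12 in arrays of short loci and 6 of 12 in solitary loci under 900 bp, against 5 of 178 (2.81%) here and 603 of 12821 (4.70%) of the named genes. Among tested loci of 900 bp or longer in pairs and arrays, 128 of 739 (17.3%) were called higher. Within the solitary long loci, 0 of the 140 of 1932 or 3100 to 3400 bp were called higher, and 5 of the 38 of other lengths (13.2%). All 5 passed the filter on low counts through the knockdown libraries. In every arrangement a locus near 0 in the controls could pass it only in that way, which bears on all these shares. Of the 178 tested loci here 140 were of that length class, which was chosen after the values were seen. The parts of length and arrangement in these shares were not tested. These shares are descriptions without a test between arrangements, because loci of 1 array share their element.

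**Figure D4:**
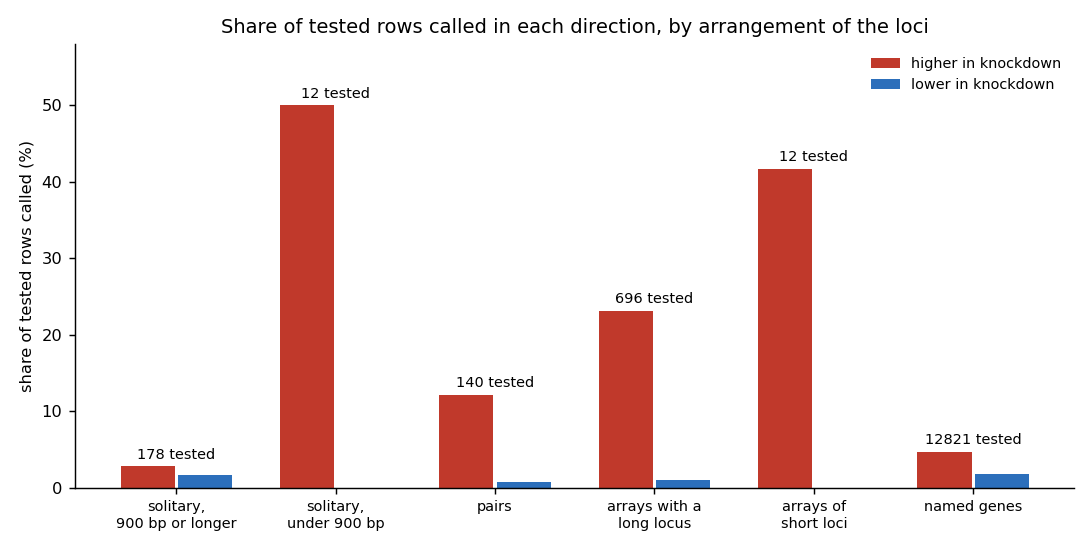
Share in percent of tested rows called higher (red) or lower (blue) in the knockdown (vertical, from 0) for each arrangement of the position-named loci and for named genes, with the number tested above the bars. The solitary loci of 900 bp or longer stand at 2.81% higher and 1.69% lower, under every other arrangement in the higher direction.

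Among 25 genes of H3K9 methylation and retroelement silencing, all tested, 3 were called higher, 2 lower and 20 not, with a median log2 fold change of -0.10. Of all rows tested 5.75% were called higher and 1.8% lower, and 1 of the 2 lower calls is the targeted gene Setdb1, so these small counts are given as a description. Those that rose were Resf1, a Setdb1-binding factor of retroelement silencing (log2 fold change 1.79), Atf7ip, a partner that stabilises Setdb1 (1.10), and Zfp809, a KRAB zinc finger protein of murine leukaemia virus elements (0.92). Beside Setdb1, Suv39h2, another H3K9 methyltransferase, fell (-0.82). Trim28 and the zinc finger genes Zfp932 and Gm15446 were not called, at -0.10, 0.09 and -0.27.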

How the data were processed

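The deposited files hold, per the file headers, the columns that RSEM writes for each row: the authors' expected counts, estimates in which reads fitting several rows are divided, and deposited TPM values, which are scaled for length. The submitters' processing notes list STAR, RSEM, FastQC and DESeq2 beside the builds mm10 and GRCm38. Not given in the sources used here are their versions, the annotation and whether counting used strand. All 115821 rows had names. Expected counts were rounded and fitted together with edgeR 4.0.16 in R 4.3.3 (TMM, filterByExpr, quasi-likelihood test on the group alone, tested on simulated data), with Benjamini-Hochberg adjustment over 13859 rows and a threshold of 0.05. CPM is the expected count scaled to a sum of 1e+06 over all rows. No library repeated another, with a chi-square per row of 25.2 for the control pair and 22.8 for the knockdown pair. Place came from GENCODE M21 and likeness from blastn 2.17.0. Ratios with few control counts have exact 95% binomial intervals, and a group at 0 was set to 3 counts.

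Members and lists were chosen with earlier results of these data known. Named were all called loci, the 8 of highest mean CPM, the 2 nearest the length threshold on each side, the 5 longest with at least 10 counts, and loci at 0 in 1 group with at least 10 counts in each library of the other. Loci with printed or compared sequence, and the length classes, were chosen after values were seen. Alternatives were DESeq2's size factors, DESeq2 1.42.0, other filters, the legacy fit, left-out libraries, a replicate block, TMM from named genes and a fit of loci alone. FPKM was not used.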

Additional observations from a re-analysis of the deposited data

How the results depend on the processing

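The 5 loci called higher were called again with DESeq2's size factors, DESeq2 1.42.0, TMM from named genes, the legacy fit, the replicate block and a fit of loci alone. With no filter on low counts edgeR called 0 members higher and 0 lower among 1904 tested (74 and 66 at an unadjusted p under 0.05), and 0 of all 29415 rows; the cause was not tested. In that setting Setdb1 was at -2.47 with an adjusted p of 0.0881, and the median log2 fold change of the tested loci was 0.0216. For the 332 of 1932 or 3100 to 3400 bp among them the median was -0.498. A filter of 1 CPM in 2 libraries left 4 higher and 2 lower of 84. Leaving out 1 library gave 2 to 6 loci higher and 0 to 3 lower. Without control 2, 2 were higher and 0 lower (10 and 18 at an unadjusted p under 0.05), and over all rows 265 were higher and 42 lower against 797 and 249. Without control 2 the loci on chromosomes 2, 5 and X lost their call, with adjusted p of 0.102, 0.0567 and 0.0596, and the chromosome 2 locus was not tested without knockdown 1 or at 1 CPM in 2 libraries. Of the 3 lower calls, those on chromosomes 3 and 10 were lost whichever library was left out and that on chromosome 13 without control 2 or knockdown 1. DESeq2 gave 1 lower call, shared with none of the 3, and the fit of loci alone gave 5. The replicate block gave 5 higher and 3 lower. Same-numbered libraries deviated apart (correlation -0.138), and a crossed replicate block, added after seeing the data, gave 7 higher and 12 lower. The summed difference of the members ran from -248 to -97.6 CPM over the left-out libraries and was -159 CPM with TMM scaling. The added calls crossed the length split: 1 locus of other lengths was lower without control 1, and 2 of the family's lengths were higher with 1 of other lengths lower without knockdown 1, against 2 and 3 with the crossed block. The filter on low counts left 178 of 13897 loci to test and 11775 had 0 counts in every library, and depth itself was not varied.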
